A study of Mus musculus with 5 samples.

Results

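The Hox clusters are the 4 groups of neighbouring homeobox genes that set the position of tissues along the body axis. The members described here are the protein-coding genes named Hoxa, Hoxb, Hoxc or Hoxd with a number in the GENCODE M21 annotation of mm10, which gave 39 genes of the 21938 protein-coding genes on chromosomes 1 to 19, X and Y. HoxA held 11 of them, HoxB 10, HoxC 9 and HoxD 9. The data were peak lists from CUT&RUN-seq of MuSCs, the stem cells of skeletal muscle, taken fresh from mice. In this assay a nuclease tethered to an antibody cuts out the DNA beside the bound protein, which is then sequenced. JunB was profiled in 3 libraries from young mice and in 1 from aged mice, and 1 further library profiled H3K27ac, a histone mark found at active promoters and enhancers. The groups were given as Young or Aged in the labels, with no age in numbers and no treatment or genotype, the young libraries as biological replicates, and no age is given for the mice of the H3K27ac library. The series' design text speaks of mice given DMSO or MVC for JunB, and the sample labels were used.

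Hox proteins are transcription factors that bind DNA through a homeodomain, often together with PBX, MEIS or PREP (Pknox) partners. Their genes are arranged in each cluster in the order in which they are used along the body: genes of low paralogue number lie at the end called anterior here, and genes of high number, which pattern the distal limb and the trunk's hind parts, at the posterior end. Polycomb proteins keep unused parts of the clusters silent, and adult cells of mesenchymal and muscle origin retain a Hox pattern that reflects where they came from. JunB is a bZIP subunit of the AP-1 transcription factor, whose usual site is TGACTCA or TGAGTCA.

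Each cluster was taken from the first to the last base of its Hox genes, with a window of 50 kb past each end. In mm10, HoxA lies at chr6:52155590-52260880 (105.3 kb) with its anterior end at the lower coordinate. HoxB lies at chr11:96194316-96368256 (173.9 kb), HoxC at chr15:102921103-103036852 (115.8 kb) and HoxD at chr2:74668310-74765142 (96.83 kb), each with its anterior end at the higher coordinate. The 4 windows add up to 891.8 kb.

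The sequences shown first are those of the JunB sites found in more than 1 library, because repeated calls are what separates them from the other Hox sites. Overlapping JunB peaks in the windows merged to 8 sites: 5 came from 1 library, and 1 each from 2, 3 and 4 libraries. The bases shared by every peak of each repeated site are given 5′ to 3′ on the plus strand of GRCm38 (mm10), from the RefSeq assembly. Capitals would mark an AP-1 match (TGACTCA or TGAGTCA), the CRE motif (TGACGTCA) or the PBX-HOX motif (TGATTNAT) on either strand, and none of the 3 sequences had any. Absence of these letters says nothing about the factor. The first site lies past the anterior end of HoxB, in no annotated gene, at chr11:96413881-96414095 (215 bases, 43.3% GC).
HoxB flank: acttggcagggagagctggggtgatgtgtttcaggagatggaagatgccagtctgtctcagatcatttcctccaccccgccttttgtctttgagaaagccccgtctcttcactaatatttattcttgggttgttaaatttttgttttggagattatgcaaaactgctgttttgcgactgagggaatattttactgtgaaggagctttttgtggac
The next lies in an intron of Hoxc4 at chr15:103027525-103027754 (230 bases, 54.3% GC).
Hoxc4 intron: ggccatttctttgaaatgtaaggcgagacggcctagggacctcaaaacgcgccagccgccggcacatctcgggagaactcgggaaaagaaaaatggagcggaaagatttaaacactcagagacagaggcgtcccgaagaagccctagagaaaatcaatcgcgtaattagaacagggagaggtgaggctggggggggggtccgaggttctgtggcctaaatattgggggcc
The last lies upstream of Hoxc11, outside any gene record, at chr15:102953520-102953762 (243 bases, 42.8% GC).
Hoxc11 upstream: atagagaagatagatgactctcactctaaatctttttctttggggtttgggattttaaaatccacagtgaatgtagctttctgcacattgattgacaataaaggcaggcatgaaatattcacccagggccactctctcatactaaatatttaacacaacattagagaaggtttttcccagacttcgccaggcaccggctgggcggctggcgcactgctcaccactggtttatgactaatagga

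H3K27ac marked HoxA and HoxC, and no H3K27ac peak lay in the windows of HoxB or HoxD. The library held 39865 peaks, of which 13 lay in the 4 windows and 11 inside the clusters. HoxA had 4, all inside the cluster, and HoxC had 9, of which 7 were inside and 2 in the anterior flank. The peaks covered 2193 bases of HoxA, 2.08% of its length, and 3795 bases of HoxC, 3.28%, against 1.19% of the genome. Taken over all 4 windows the density of H3K27ac peaks, 14.6 per Mb, was close to the 14.5 per Mb of the genome, with 9 of the 13 peaks in HoxC. Of 1422 genome bins of 200 kb with at least 5 protein-coding genes, 15.5% held no H3K27ac peak. There was 1 H3K27ac library, so these counts have no replicate check, and no test was made.

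**Figure D1:**
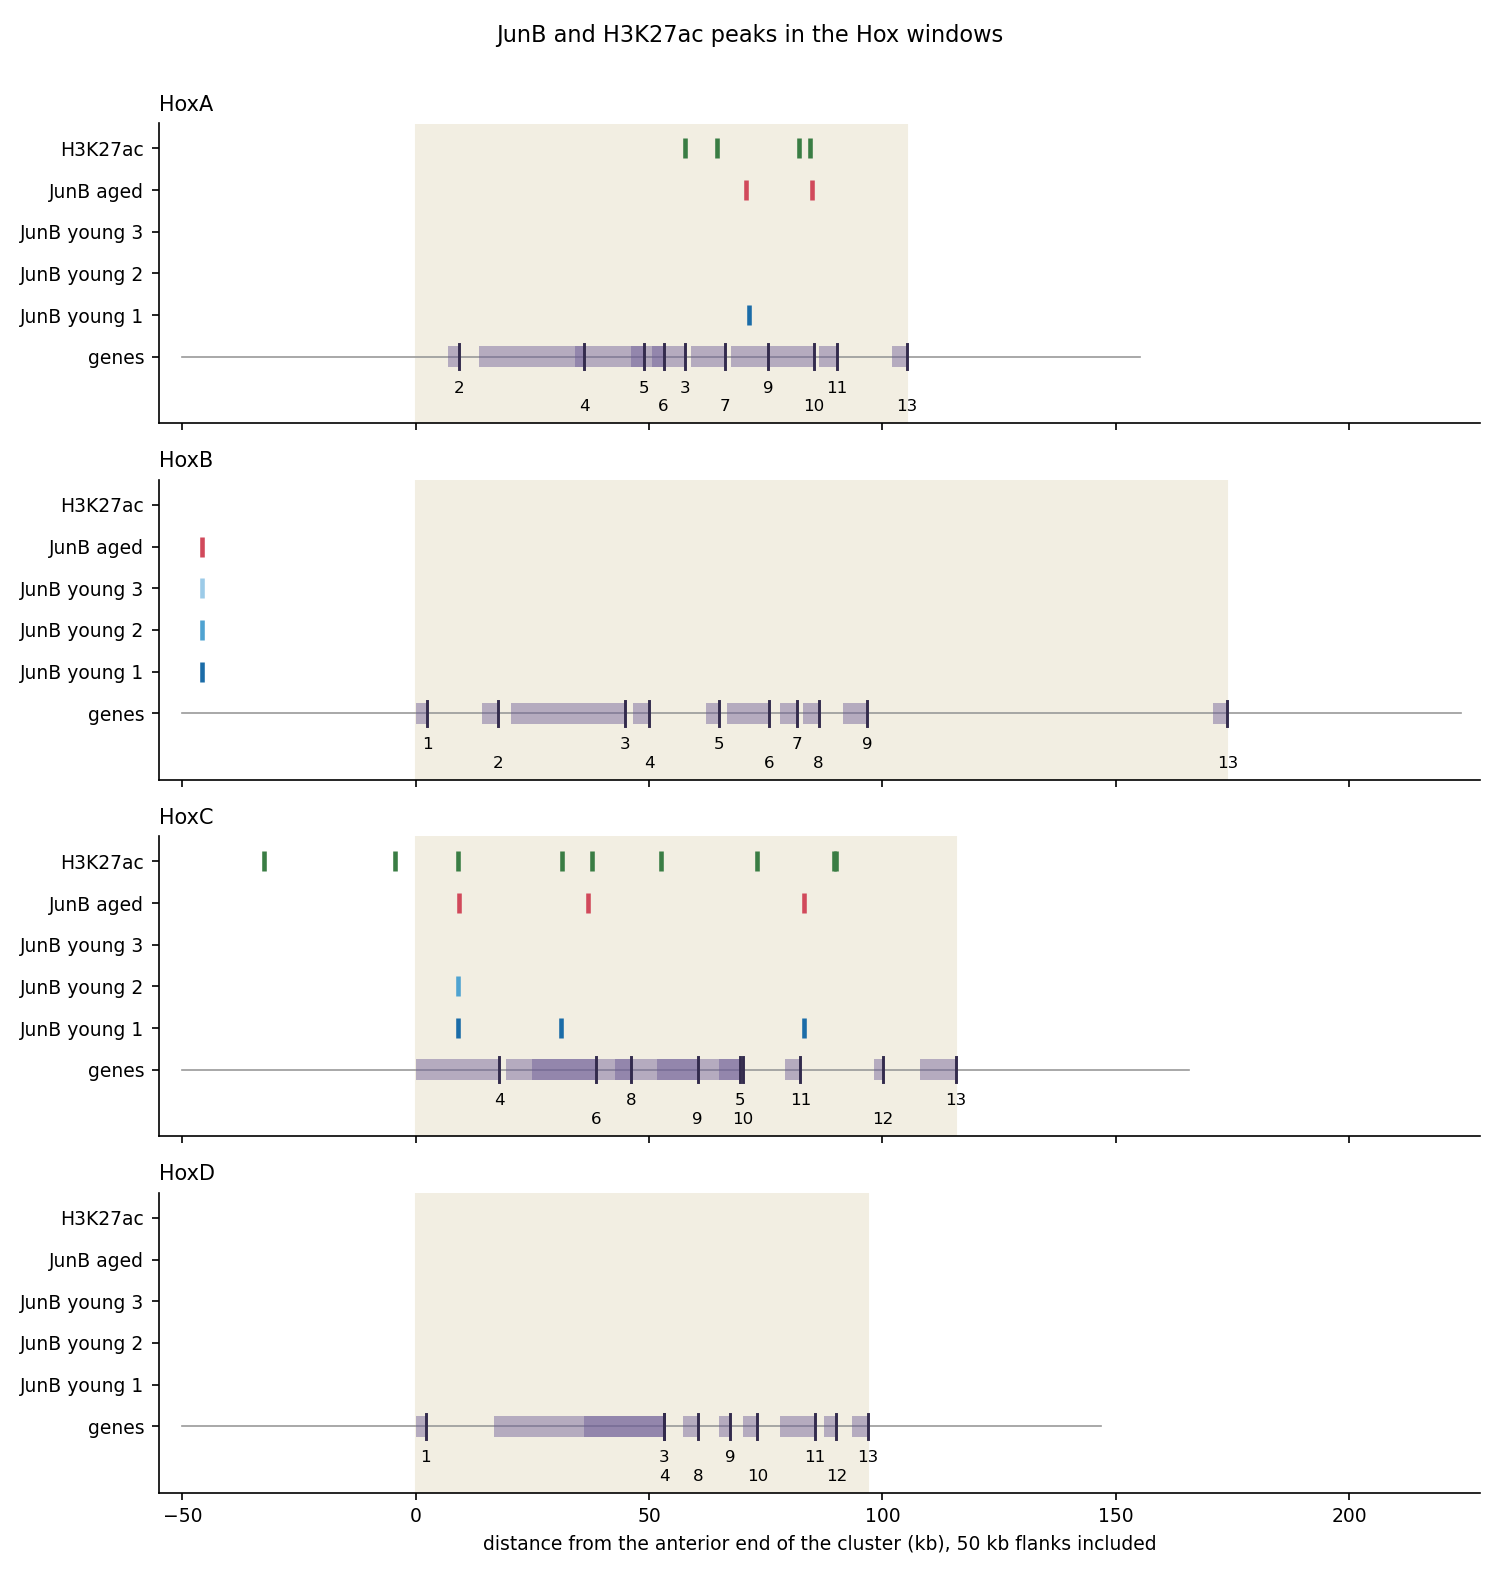
Summits of JunB and H3K27ac peaks in each Hox window, plotted as kb from the anterior end of the cluster, with 1 row per library; shaded areas are the clusters, purple boxes Hox gene records and dark ticks the 5′ end of each record with its paralogue number. H3K27ac has 4 marks in HoxA and 9 in HoxC, HoxB carries 1 JunB site in its anterior flank in all 4 JunB libraries, and HoxD is empty in all 5 rows.

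In HoxA the mark lay in the middle and posterior part of the cluster. Its 4 peaks spanned 27.3 kb, 26.0% of the cluster, from chr6:52213090-52213461 to chr6:52239433-52240437. The peak of lowest coordinate sat on the distal TSS of Hoxa3, 64 bp past it, with a fold enrichment of 2.58 over the local background. Hoxa3, which patterns the pharyngeal region, belongs to the anterior genes by number, but this TSS lies between Hoxa6 and Hoxa7, and the same bases are annotated as exons of the readthrough gene Gm28308 and of the antisense transcript Hoxaas3. Reads of these overlapping records cannot be told apart. The next peak, in an intron of Hoxa7, had a fold enrichment of 2.33 at 183 bp past a Hoxa7 TSS.

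The other 2 HoxA peaks belonged to Hoxa10, a posterior gene that patterns the proximal limb and the lumbar spine. One lay 2776 bp upstream of the nearest Hoxa10 TSS with a fold enrichment of 2.23. The other, chr6:52239433-52240437, was 1005 bp wide, the widest of the 13, and reached a −log10 p of 16.2 at a fold enrichment of 3.2. No H3K27ac peak lay nearer than 48259 bp to Hoxa2, towards the anterior end, and the nearest peak to Hoxa13, at the posterior end, was at 20365 bp.

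HoxC carried the mark from Hoxc4 to Hotair, over 81.9 kb or 70.8% of the cluster. The peak in the Hoxc4 intron, chr15:103027295-103028176, was the strongest of the 13 by −log10 p, with 25.7 and a fold enrichment of 5.72, and ranked in the top 7.11% of the library. Hoxc6, a gene of the thoracic and forelimb level, had a peak 876 bp past a TSS with a fold enrichment of 2.15 and another 4165 bp upstream of one, at a fold enrichment of 2.66 (−log10 p 17.7). Both also lie in an intron of the long Hoxc5 record, so they belong to either gene by position.

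Further marks lay among the more posterior HoxC genes. A peak 3071 bp upstream of Hoxc10, measured at its summit, had the lowest fold enrichment of the 13, 1.89, and its near edge was 2649 bp from the TSS. A peak in a Hoxc9 exon outside the coding sequence had 2.27, and its summit was nearest to Hoxc8, 6391 bp upstream of a TSS. The 2 most posterior peaks, at 2.19 and 2.1, lay in an intron of Hotair, a long non-coding RNA transcribed from between Hoxc11 and Hoxc12, and the nearer one began 405 bp from its TSS. Hoxc13 had no H3K27ac peak within 25135 bp. In the anterior flank, 2 peaks outside any gene record had fold enrichments of 2.86 and 3.87, and they were the nearest H3K27ac past that end of HoxC.

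By the paralogue number of the nearest TSS, 2 of the 11 H3K27ac peaks inside the clusters were anterior (groups 1 to 4), 4 central (5 to 8) and 5 posterior (9 to 13). The anterior 2 were the Hoxa3 peak, which lies among the central genes by position, and the Hoxc4 peak. With groups 1 to 3 as anterior, 1 was left. The classes hold unequal numbers of Hox genes, and the peaks were not set against those numbers. The split therefore shows no preference for either end. The Hox genes with H3K27ac within 3 kb of a TSS were of groups 3, 6, 7 and 10.

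H3K27ac in the Hox windows was weak for this library. The median fold enrichment of the 13 peaks was 2.33, with a range of 1.89 to 5.72, against a median of 3.65 over all peaks. Their −log10 p had a median of 8.93 and a range of 6.89 to 25.7, against 11.0. In width they ranged from 298 to 1005 bp with a median of 560 bp, below the library's 730 bp. Among the 10000 strongest H3K27ac peaks by −log10 p, 1005 bases of HoxA and 1574 bases of HoxC were still covered.

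**Figure D2:**
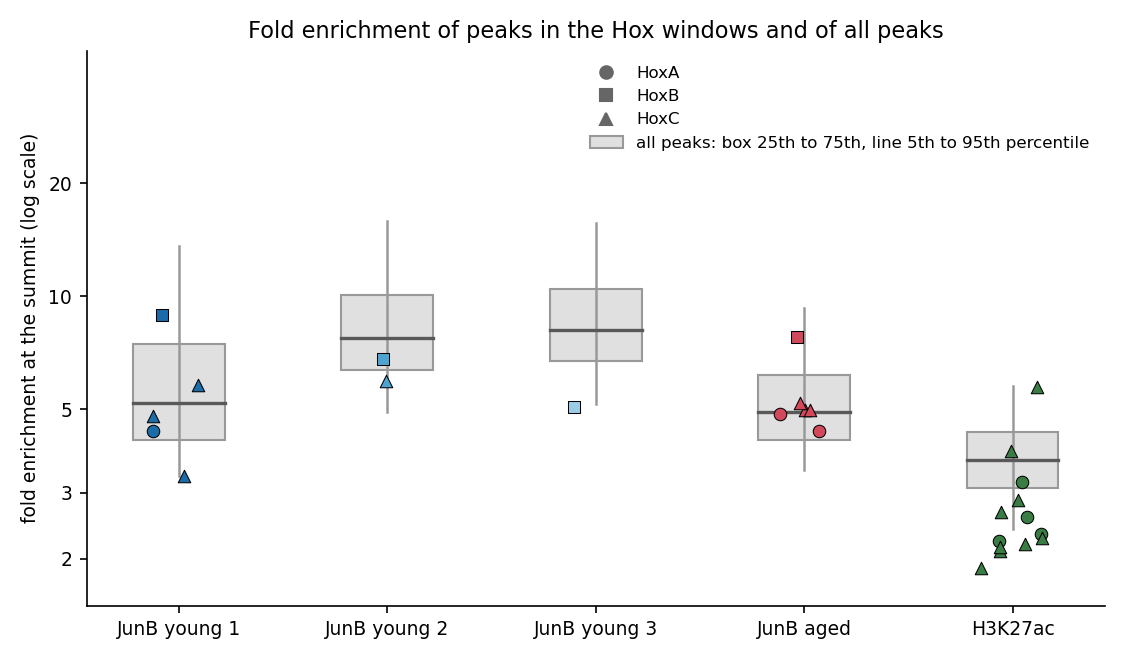
Fold enrichment at the summit (log axis) of each peak in the Hox windows, by library, with circles for HoxA, squares for HoxB and triangles for HoxC; grey boxes, centre lines and whiskers describe all peaks of the library. The H3K27ac points lie mostly under the library median of 3.65, and the HoxB flank site is the highest JunB point of every library.

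The HoxB and HoxD genes lay far from any H3K27ac peak. For HoxB, the nearest one past the posterior end was at 118349 bp, at the promoter of Atp5g1 (a subunit gene of the mitochondrial ATP synthase), and past the anterior end at 397891 bp near Snx11. From Hoxb13 to Hoxb1 the distance to the nearest H3K27ac peak grew from 118349 to 289785 bp. HoxD lay between the marked promoters of Lnpk, 88983 bp past its posterior end, and Mtx2, 60286 bp past its anterior end. The HoxD genes, several of which build the limb's digits and forearm, were 62448 bp (Hoxd1) to 120276 bp (Hoxd8) from an H3K27ac peak.

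**Figure D3:**
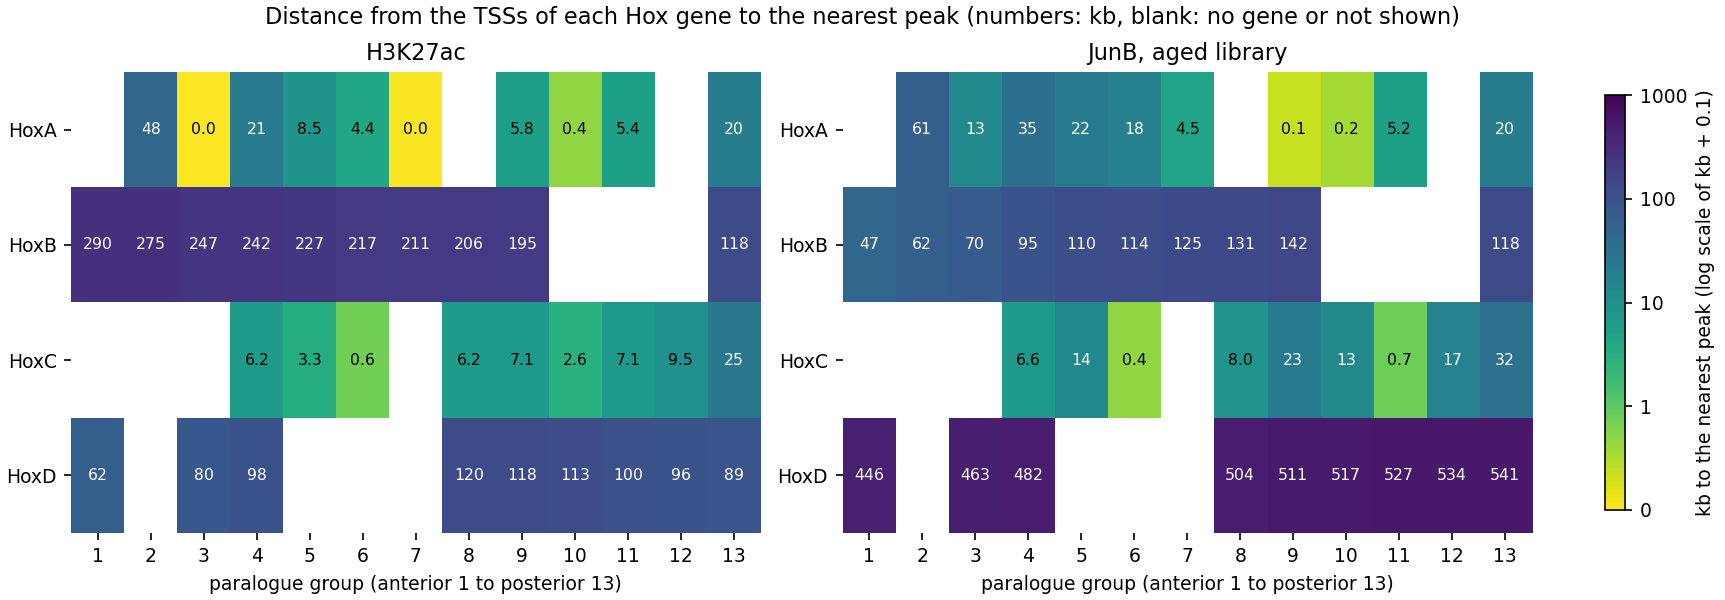
Distance in kb (colour on a log scale) from the TSSs of each Hox gene to the nearest H3K27ac peak (left) and the nearest JunB peak of the aged library (right), with paralogue groups in columns and clusters in rows; a blank is a group with no gene in that cluster or with no value shown. HoxA and HoxC hold all the short distances, while every HoxD gene is at least 62448 bp from H3K27ac and 446091 bp from JunB of the aged library.

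Counted per gene, 5 of the 39 Hox genes had an H3K27ac peak within 3 kb of a TSS: Hoxa3, Hoxa7, Hoxa10, Hoxc6 and Hoxc10. This is 12.8% (exact Clopper-Pearson 95% interval 4.3% to 27.4%, counting error only), where 49.8% of all protein-coding genes had one. The median distance from a Hox gene to the nearest H3K27ac peak was 54.8 kb, against 3.11 kb over all protein-coding genes. Neighbouring Hox genes share peaks and are not independent, and the comparison is a description without a test.

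JunB peaks in the Hox windows numbered 6 in the aged library and 5, 2 and 1 in young replicates 1, 2 and 3, whose mean was 2.67 ± 2.08 (SD, n = 3). The aged count was above every young library, but so was its whole list, with 14123 peaks against 9534, 4884 and 3863. As a share of its own list the aged library, at 0.0425%, lay between the young libraries, which had 0.0524%, 0.041% and 0.0259%. The windows held 5.61, 2.24 and 1.12 JunB peaks per Mb in young replicates 1, 2 and 3 against 3.44, 1.76 and 1.39 over the genome, and 6.73 against 5.16 in the aged library. The lists did not end at the same threshold, since the weakest peak had a −log10 p of 3.01 in both the aged list and that of young replicate 1, but of 5.33 and 5.22 in those of young replicates 2 and 3. Age, peak number and threshold cannot be told apart with 1 aged library.

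By gene, 2 of 39 Hox genes had a JunB peak within 3 kb of a TSS in young replicate 1 (Hoxa9 and Hoxc11), which is 5.13% (exact 95% interval 0.627% to 17.3%) beside 11.0% of all protein-coding genes. Young replicates 2 and 3 had 0 of 39, which allows a share of up to 9.03% by the same interval, beside 7.74% and 5.91% of all protein-coding genes. The aged library had 4 of 39 (Hoxa9, Hoxa10, Hoxc6 and Hoxc11), which is 10.3% (2.87% to 24.2%) beside 23.9% of all protein-coding genes. In each JunB library the interval included the share of all genes, in the aged library only just (24.2% against 23.9%). The interval counts the 39 genes as independent, though neighbours share peaks, and it is not a test. The aged set contained both genes of young replicate 1. All the young calls came from replicate 1, and 0 Hox genes were called without it. Without replicate 1, whose peak names carry the word gfp, the HoxB flank site would still be in 3 libraries, the Hoxc4 intron site in 2 and the Hoxc11 site in the aged library. In all, 32 Hox genes had no peak of any of the 5 libraries within 3 kb: all 10 of HoxB, all 9 of HoxD, 7 of HoxA and 6 of HoxC. The same count over all protein-coding genes was not made, so how unusual 32 of 39 is cannot be said.

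**Figure D4:**
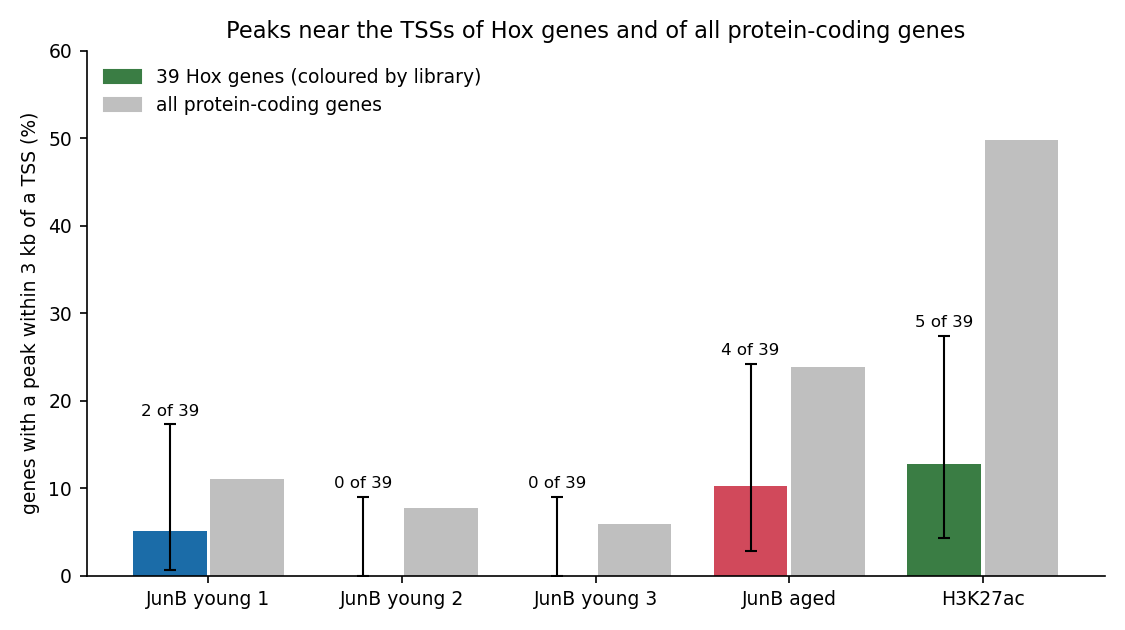
Share of the 39 Hox genes (coloured bars, with exact 95% binomial intervals) and of all protein-coding genes (grey bars) that have a peak within 3 kb of a TSS in each library. The Hox share is 12.8% for H3K27ac where all genes have 49.8%, and 0 of 39 in young replicates 2 and 3.

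The most repeated JunB site in the Hox windows lay outside the genes, in the anterior flank of HoxB. It had a fold enrichment of 7.78 in aged MuSCs against 8.91, 6.82 and 5.07 in young replicates 1, 2 and 3. The aged fold enrichment lay within the range of the young libraries. The −log10 p, each relative to its own library, was 13 in aged MuSCs and 18.0, 11.8 and 6.79 in the young libraries. By rank the site stood in the top 20.6% of the list of young replicate 1 and the top 15.6% of the aged list, but at 72.3% and 97.6% of the lists of young replicates 2 and 3. The site was 47.7 kb from the nearest Hox TSS, that of Hoxb1, a gene of the hindbrain, and 50396 to 50498 bp from Skap1, the adaptor gene on its other side. It overlapped no H3K27ac peak, and the nearest one was 337684 bp away.

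The Hoxc4 intron site was the only one of the repeated sites inside an H3K27ac peak. It was called in young replicates 1 and 2 with fold enrichments of 4.81 and 5.93, and in the aged library with 4.99, but not in young replicate 3. The −log10 p were 7.18, 9.29 and 6.94, near or under the median of each list (8.43, 15.6 and 7.24). It lay 6.76 kb upstream of the nearest Hoxc4 TSS, within longer Hoxc4 transcripts, and so did not count among the genes with a peak near a TSS. It is also where the strongest H3K27ac peak of the 4 windows was found.

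Upstream of Hoxc11, a posterior gene of the hindlimb level, young replicate 1 had a JunB peak with a fold enrichment of 5.81 and the aged library one of 4.99. Their summits lay 771 and 891 bp upstream of the Hoxc11 TSS. No H3K27ac peak overlapped this site, and the nearest was 6166 bp away, towards Hotair.

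The other 5 sites were called once each. The aged library alone had a peak 536 bp upstream of a Hoxc6 TSS (fold enrichment 5.2), 619 bp from an H3K27ac peak. Young replicate 1 alone had one 3946 bp upstream of Hoxc6 with a fold enrichment of 3.32, which lay inside H3K27ac and ranked at 95.9% of its list. At Hoxa9, a regulator of limb and blood progenitors, the aged library had a peak 253 bp upstream of a TSS and young replicate 1 a separate one 416 bp past a TSS. Both had a fold enrichment of 4.37 and a −log10 p of 6.21, they did not overlap each other, and both lay in Hoxa9 exons outside the coding sequence. The aged library also had a peak 363 bp past a Hoxa10 TSS, again in an exon outside the coding sequence, with a fold enrichment of 4.87, which overlapped the edge of the wide H3K27ac peak of that gene.

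Hoxa10 and Hoxc6 were the Hox genes with both JunB and H3K27ac within 3 kb of a TSS, in each case with JunB from the aged library. In young replicates 1, 2 and 3 the nearest JunB peak to Hoxa10 was at 6260, 128110 and 128111 bp, and to Hoxc6 at 3866, 17952 and 230375 bp. In the aged library these distances were 246 and 365 bp. Whether the difference belongs to age or to the longer aged list was not tested.

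HoxD had no JunB peak in any of the 4 libraries. The nearest ones in the aged library were 775059 bp past the posterior end, at the promoter of Atf2, and 443929 bp past the anterior end. In the young libraries they were 1075058 to 1087436 bp and 819771 to 820122 bp away. Among the 1422 gene-rich bins, 22.3% had no JunB peak of the aged library, and 40.4%, 56.5% and 62.4% none of young replicates 1, 2 and 3, so a window without JunB was common.

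The JunB peaks of the Hox windows that overlapped H3K27ac were 2 of 5 in young replicate 1, 1 of 2 in young replicate 2, 0 of 1 in young replicate 3 and 2 of 6 in the aged library. Over all peaks, 47.1% of those in aged MuSCs overlapped H3K27ac, as did 46.8%, 61.8% and 61.2% of those of young replicates 1, 2 and 3. The counts are too small to set against these shares. Merged to sites, 3 of the 8 overlapped H3K27ac: those in the Hoxc4 intron, upstream of Hoxc6 and at Hoxa10.

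None of the 14 JunB peaks in the windows held TGACTCA or TGAGTCA anywhere in its length. Within 50 bp of the summit, AP-1 letters were found in 3.59% of the other aged peaks and in 5.24%, 5.87% and 7.21% of those of young replicates 1, 2 and 3, so a site without them was the rule in the whole lists too. The clusters are not devoid of the motif, with 10 matches in HoxA, 16 in HoxB, 8 in HoxC and 8 in HoxD. The nearest match to any JunB site of the windows was at Hoxa10, its centre 22 bp from the edge of the aged peak and inside the H3K27ac peak, at chr6:52240280-52240286, and its surroundings (chr6:52240270-52240296, plus strand) are shown with the motif in capitals.
Hoxa10 motif: ccacttacctTGACTCAtttcagaaat
The PBX-HOX motif TGATTNAT occurred once, in the aged Hoxa9 peak, and within 50 bp of 0 Hox summits against 0.989% of the other aged peaks.

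In base composition, the Hox peaks had more CpG than the other peaks of their lists. The ratio of observed to expected CpG had a median of 0.523 in the 13 H3K27ac peaks against 0.248 in the others, of 0.625 in the aged library against 0.303, and of 0.58 and 0.577 in young replicates 1 and 2 against 0.251 and 0.287. In young replicate 3, whose single peak is the HoxB flank site, it was 0.218 against 0.281. The JunB medians rest on few peaks, some of them at the same sites in several libraries. Over the whole clusters the ratio was 0.477 in HoxA, 0.349 in HoxB, 0.357 in HoxC and 0.46 in HoxD. These values too are above the medians of the other peaks, and what the peaks add to the composition of the clusters was not tested. Of the Hox genes, 22 had promoters in the RefSeq table, 24 promoters in all, with a median ratio of 0.626 against 0.384 for 32827 others. AP-1 letters occurred in 1 of these 24 (Hoxd11), 4.17% against 5.2%, and the PBX-HOX motif in 2, 8.33% against 3.22%.

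The clusters also hold microRNA genes that repress Hox and other messages. The 5p arms of the 2 families whose seed is shared between clusters are shown, with the seed (bases 2 to 8) in capitals, from RefSeq on GRCm38. Mir615 in HoxC belongs to neither.
mmu-miR-10a-5p: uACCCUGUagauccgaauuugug
mmu-miR-10b-5p: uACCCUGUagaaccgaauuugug
mmu-miR-196a-5p: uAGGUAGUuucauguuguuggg
mmu-miR-196b-5p: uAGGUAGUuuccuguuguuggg
None of these genes, Mir615 included, had an H3K27ac peak within 3 kb. Mir196b in HoxA was at 7213 bp and Mir196a-2 and Mir615 in HoxC at 9203 and 8970 bp, while Mir10b in HoxD was at 99358 bp and Mir10a and Mir196a-1 in HoxB at 241198 and 189197 bp. These distances follow from the same peaks as those of the neighbouring Hox genes, so they add nothing to the split of the clusters. Of 17 listed non-coding genes in or beside the clusters, Hotair alone had an H3K27ac peak within 3 kb of a TSS and 0 had a JunB peak in any library. Of all protein-coding genes, 49.8% had H3K27ac, 23.9% JunB of the aged library and 11.0%, 7.74% and 5.91% JunB of young replicates 1, 2 and 3. The shares over all non-coding genes were not computed, so how unusual these counts are cannot be said.

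Of 9 genes for the DNA-binding partners of Hox proteins, 7 had H3K27ac within 3 kb of a TSS, beside 49.8% of all protein-coding genes. They included Pbx2, Pbx3, Meis1 and Meis3, and Pbx4 and Meis2 had none. JunB was near 4 of the 9 in aged MuSCs, beside 23.9% of all protein-coding genes, and near 1, 1 and 0 in young replicates 1, 2 and 3, beside 11.0%, 7.74% and 5.91%. Pknox1, which encodes PREP1, had a JunB peak in aged MuSCs (−log10 p 17.4) and in young replicates 1 and 2 (14.8 and 19.2), while its nearest peak in young replicate 3 was 85465 bp away. The aged library also had peaks at Pbx3 and Pknox2, which no young library had within 3 kb.

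Of 19 genes listed as regulators of the clusters, 8 had H3K27ac near a TSS, where 49.8% of all protein-coding genes did. The list holds Polycomb, Trithorax and histone demethylase genes, and also Ctcf and the Cdx genes. JunB was near 6 of the 19 in aged MuSCs and near 3, 1 and 1 in young replicates 1, 2 and 3, where the shares of all genes were 23.9%, 11.0%, 7.74% and 5.91%. Kdm6b, a demethylase of the Polycomb mark H3K27me3, had a JunB peak in all 4 libraries, with a −log10 p of 33.6 in aged MuSCs and of 123, 65.2 and 56.8 in young replicates 1, 2 and 3. Its peak was 2343 to 2856 bp from a TSS, inside the 3 kb limit but not close to the promoter, and no H3K27ac peak lay within 3 kb (4084 bp). Each −log10 p is relative to its own library and gives no order between libraries.

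Of 34 other homeobox and limb factors, 10 had H3K27ac near a TSS, beside 49.8% of all protein-coding genes. JunB was near 1, Six2, in the aged library, beside 23.9% of all protein-coding genes. It was near 0 in young replicates 1, 2 and 3, beside 11.0%, 7.74% and 5.91%. The 10 included Six4 and Pax3 of the muscle lineage and Tbx4, a gene of the hindlimb. Tbx5, of the forelimb, and Pitx1, of the hindlimb, had none, at 105772 and 102998 bp. All these lists were drawn up with earlier results of the data known, and their counts are descriptions.

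**Figure D5:**
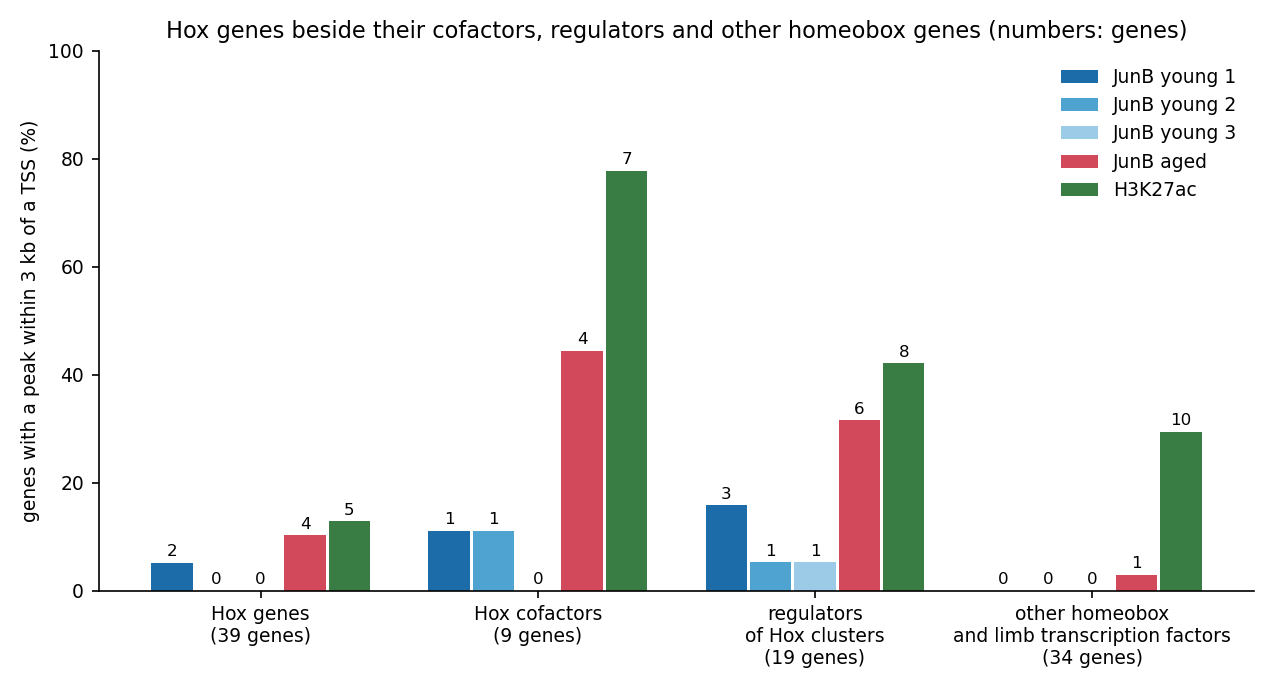
Percent of genes with a peak within 3 kb of a TSS, by library, for the 39 Hox genes, 9 Hox cofactors, 19 regulators of Hox clusters and 34 other homeobox and limb transcription factors; the number of genes is written over each bar. For H3K27ac the genes number 5, 7, 8 and 10 in that order.

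Among the listed neighbours of the clusters, the promoter with the strongest JunB peaks also had H3K27ac. The shared promoter of Cbx5 (a heterochromatin protein) and Hnrnpa1, about 203 kb past the anterior end of HoxC, had JunB in all 4 libraries at a −log10 p of 24.2 in aged MuSCs and of 77.7, 66.9 and 62.9 in young replicates 1, 2 and 3, and H3K27ac at 23.9. The other aged JunB peaks near neighbours had a −log10 p of 5.17 to 6.49, under that list's median of 7.24. Of 15 neighbouring genes, 8 had H3K27ac near a TSS, beside 49.8% of all protein-coding genes. JunB was near 5 in aged MuSCs and near 2, 3 and 3 in young replicates 1, 2 and 3. The shares of all protein-coding genes were 23.9%, 11.0%, 7.74% and 5.91% in that order. Cbx5 and Hnrnpa1 both count for their shared JunB peak in every library.

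The study's methods sorted MuSCs from hindlimb muscles as cells negative for CD45, CD31 and SCA1 and positive for VCAM. As a check of the cell label, 9 of 12 MuSC markers had H3K27ac within 3 kb of a TSS, beside 49.8% of all protein-coding genes, among them Myod1, Vcam1 and Megf10. Pax7, Myf5 and Calcr did not, and the nearest H3K27ac peak to Pax7 was 49707 bp away, so the defining marker of MuSCs was without the mark at its TSS in this list. Of the markers of other cells, H3K27ac was near 4 of 7 of mature muscle, 2 of 6 of fibro-adipogenic progenitors, 2 of 6 of endothelium, 1 of 6 of immune cells and 2 of 4 of Schwann cells. What such cells add to the Hox peaks was not tested. JunB lay near 6 of the 12 MuSC markers in aged MuSCs, beside 23.9% of all protein-coding genes. In young replicates 1, 2 and 3 it lay near 2, 3 and 1, beside 11.0%, 7.74% and 5.91%.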

How the data were processed

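Per the labels and the study's methods, the authors cleaned the reads, mapped them with Bowtie2 (mm10), removed redundant reads and ran MACS2 on every library. The methods state a p cutoff of 0.001 for JunB, and none is stated for H3K27ac. They call the H3K27ac data the authors' own from mouse MuSCs but also name the UCSD Human Reference Epigenome Mapping Project. What that project has to do with this library is not explained, and the sample label was used. The reporting summary names the same cutoff and, beside its peak counts, a stricter one. Versions and a control library are not given in the sources used here. For each peak the deposited lists give a fold enrichment (a ratio to that library's local background), a −log10 p and a −log10 q. Read counts are not part of the lists, so depth is unknown, and the deposited −log10 p was used only to rank or filter within a library. The peak names of young replicate 1 carry the word gfp. The methods sorted GFP+ MuSCs for Ctrl and JunB iKO mice, and whether this library came from such mice is not given in the labels. The study's own peak sheet has the young and aged headings the other way round from the sample labels, and the labels were kept, since the peak number that the study's text gives for aged MuSCs is that of the library labelled Aged.

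Peaks were set against GENCODE M21 TSSs (within 3 kb) and RefSeq GRCm38.p6 sequence, and overlap meant at least 1 bp. Members and lists were chosen with earlier results of these data known. The genes named include all Hox genes with a peak near a TSS, all window peaks and the nearest peaks outside. The 200 kb bins, the merged JunB sites, the CRE and PBX-HOX motifs, base composition and the sequences shown were chosen after the values were seen. No test was made, because there was 1 aged and 1 H3K27ac library. Alternatives covered thresholds, windows, flanks, TSS sets and leaving out each young library. Gene assignment was tested on simulated peaks against bedtools, and the AP-1 search on random sequences with and without a planted motif. The CRE and PBX-HOX searches were not tested in this way. Python 3.11.15, numpy 2.4.6, scipy 1.17.1 and matplotlib 3.10.9 were used. Values of some genes are not reported here.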

Additional observations from a re-analysis of the deposited data

How the results depend on the processing

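Of 75 alternative values for 17 results, 60 stayed within 1.5 times the reported count, or within 1 SD for the mean of the young libraries. Keeping the strongest peaks moved most: with the 10000 strongest H3K27ac peaks, 1005 bases of HoxA and 1574 of HoxC were covered and 1 Hox gene kept H3K27ac near a TSS. With the 2000 strongest peaks of each JunB library, 0 Hox genes had JunB near a TSS in the aged and in any young library, and the windows held 0 aged peaks and a young mean of 0.333. For the Hox genes with JunB in any young library (2), 5 kb gave 4, the 5′ end of the gene record alone 1, peaks in at least 2 young libraries 0, and leaving out each young replicate 0 to 2. The young mean of window peaks ranged from 1.5 to 3.5 when each replicate was left out. At a −log10 q of at least 2 for JunB and 5 for H3K27ac, 1 peak of young replicate 1 overlapped H3K27ac. With groups 1 to 3 as anterior, 1 H3K27ac peak was anterior. Flanks held 1 H3K27ac peak at 25 kb and 10 at 100 kb. HoxB and HoxD had 0 covered bases under every alternative run, but these alternatives could not have given another value. They kept fewer peaks or widened the cluster by the same 50 kb, which already held no H3K27ac peak there. Coverage was not computed with a wider flank, and the nearest H3K27ac peak to HoxD lay 60286 bp past its anterior end. A −log10 p of at least 5.33, reached by all 4 JunB lists, was chosen after seeing the data and moved no count beyond these limits. No paired analysis was possible because the aged and H3K27ac groups hold 1 library each and no result came from a test. Depth limits these lists in an unknown way, since they hold no counts, and a gene without a peak is one without a called peak, not one shown to lack the mark.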
